A study of Mus musculus with 6 samples.

Results

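The genes described here are 6 hepatic enzymes of steroid metabolism, Hsd3b2, Hsd3b3, Hsd3b5, Srd5a1, Hsd11b1 and Hsd17b2, out of 49671 genes in the count table. Each was found by the Ensembl identifier that the GENCODE M21 annotation pairs with its symbol, and 6 of 6 were in the table. The set was chosen by its measured difference between the genotypes in these same livers, so the differences of the 6 genes are given as a description, without a test. RNA sequencing was done on the livers of 6 male C57BL/6J mice, 3 labelled WT and 3 labelled KO. The WT mice were SHMT2 fl/fl, with loxP sites around exons of the serine hydroxymethyltransferase 2 gene. The KO mice were SHMT2 HKO, which carried the same floxed allele with an Albumin-Cre transgene used to target deletion to hepatocytes. The paper proposes that SHMT2 expression in the other cells of the liver was left unaffected, which was not measured here. Both groups received the AMLN diet, which promotes fatty liver disease, from 4 weeks of age for 18 weeks, and livers were taken at 22 weeks. The comparison asked how hepatic gene expression differed when hepatocytes lacked SHMT2 under this diet.

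Steroid hormones are made mainly in the adrenal gland and gonads, and the liver takes them up and converts them into less active or excretable forms. The HSD3B family oxidizes the 3-hydroxyl group of steroids and shifts their double bond, or in some mouse members reduces the 3-keto group of active androgens. Mouse liver is known for sexually dimorphic steroid metabolism, and Hsd3b5 is one of the classical male-predominant liver transcripts, which pulsatile growth hormone maintains through the transcription factor STAT5B.

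The libraries held between 23090837 and 34089722 counts on genes, and 3 counts corresponded to between 0.0734 and 0.152 CPM, which is counts per 1000000 counts of a library after scaling by TMM, the trimmed mean of M values. Shmt2 itself was measured at 94.6, 109 and 93.9 CPM in SHMT2 fl/fl mice 1 to 3 and at 24.9, 28.3 and 19.3 CPM in SHMT2 HKO mice 1 to 3. It was lower in each HKO liver, as the labels state, with a log2 fold change of -2.04 ± 0.16 (SE, edgeR quasi-likelihood test, adjusted p = 0.000639). HKO mouse 1 differed from the other HKO livers more than these differed from each other in a comparison of counts. The mean chi-square per gene was 126 between HKO mice 1 and 2, 155 between mice 1 and 3 and 70.4 between mice 2 and 3, whereas it lay between 25.9 and 54.7 among the fl/fl livers. HKO mouse 3 differed from the others in its scaling factor, which was 0.984 against 0.812 and 0.802 for HKO mice 1 and 2. The genes called by edgeR over the whole table numbered 4663 with all mice, 4828 without HKO mouse 1, 3023 without HKO mouse 2 and 5597 without HKO mouse 3, and 2699, 2547 and 2426 without fl/fl mouse 1, 2 and 3. Values of the 6 genes are given with and without HKO mouse 1, the highest HKO liver for each of them. In bulk liver RNA, fewer cells of a type and less RNA per cell cannot be told apart.

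All 6 genes were in a higher range in the HKO livers than in the fl/fl livers, with no overlap between the groups. The same was so for 21.9% of the 16089 genes tested, and nothing is read from the count of 6, because the genes were chosen from this contrast. All 6 passed the filter on low counts, which a gene that is low in one genotype can pass through the other. The log2 fold changes were 0.94 for Hsd3b3, 1.19 for Hsd17b2 and Srd5a1, 1.27 for Hsd3b2, 1.66 for Hsd11b1 and 7.19 for Hsd3b5, with a median of 1.23, against a median of 0.03 over all tested genes. HKO mouse 1 was the highest of the HKO livers for 6 of 6 genes, as it was for 35.1% of all tested genes. HKO mouse 3 was the lowest HKO liver for 4 of the 6 genes and HKO mouse 2 for the remaining 2.

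**Figure D1:**
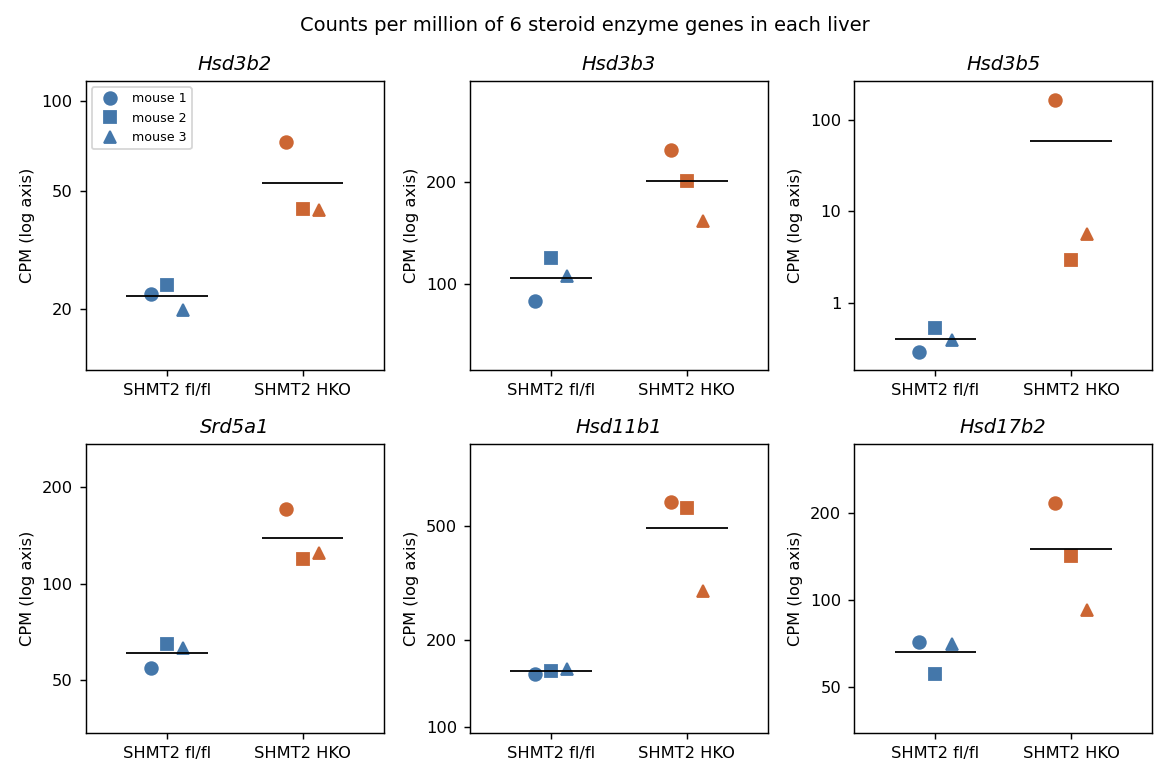
CPM (log axis) of the 6 genes in each liver, by genotype. Circles, squares and triangles are mice 1, 2 and 3 of each group, and the horizontal lines are group means. For Hsd3b5 the HKO livers lie at 165, 2.94 and 5.63 CPM, and for the other 5 genes they lie within 2.36 times of one another.

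Nearly all counts of the Hsd3b cluster of chromosome 3 in these livers fell on 3 genes. Hsd3b2, Hsd3b3 and Hsd3b5 (Ensembl ENSMUSG00000063730, ENSMUSG00000062410 and ENSMUSG00000038092) lie on the minus strand of chromosome 3 in the GRCm38 build, at chr3:98709255-98724543, chr3:98741523-98763127 and chr3:98618634-98630252. They belong to a cluster of near copies, and the start of the coding sequence is printed for 4 members to show how close they are. Each sequence is the first 90 coding bases from GENCODE M21 on GRCm38, minus strand, at chr3:98630109-98630198 for Hsd3b5, chr3:98509878-98509967 for Hsd3b4, chr3:98716471-98716560 for Hsd3b2 and chr3:98753366-98753455 for Hsd3b3. Capitals mark bases that differ from Hsd3b5.
Hsd3b5: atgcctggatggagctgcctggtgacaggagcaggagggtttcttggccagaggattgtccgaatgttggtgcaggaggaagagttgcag
Hsd3b4: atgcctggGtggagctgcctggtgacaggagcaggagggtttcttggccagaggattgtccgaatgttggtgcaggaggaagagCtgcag
Hsd3b2: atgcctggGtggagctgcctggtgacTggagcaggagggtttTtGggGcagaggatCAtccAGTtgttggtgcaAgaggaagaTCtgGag
Hsd3b3: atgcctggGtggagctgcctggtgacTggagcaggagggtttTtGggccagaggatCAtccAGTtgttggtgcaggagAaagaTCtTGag
Hsd3b4 differed from Hsd3b5 at 2 of these 90 bases, and Hsd3b2 and Hsd3b3 differed from it at 14 each. Over the whole coding sequence of 1119 bases, Hsd3b2 and Hsd3b3 were 95.1% identical to each other, and they were 80.3% and 79.8% identical to Hsd3b5. Hsd3b5 was closest to Hsd3b4 and the identical Gm10681, at 95.2%. The authors counted only unique hits, so a read that matched several copies was not counted. Of all windows of 150 bases in the transcripts, 1.21% of those of Hsd3b5 were found in another gene, 2.16% of those of Hsd3b2 and 6.89% of those of Hsd3b3. With windows of 50 bases the shares were 21.2%, 26.9% and 32.6%. Counts of these 3 genes are thus uncertain by the reads that the copies share.

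Hsd3b5, a male-predominant 3-ketosteroid reductase that inactivates androgens, had the greatest difference of the 6 genes and the widest spread. Its raw counts were 12, 14 and 15 in the fl/fl livers and 3891, 58 and 143 in the HKO livers. In CPM these were 0.294, 0.527 and 0.391 against 165, 2.94 and 5.63. Hsd3b5 was barely detected in every fl/fl liver, high in HKO mouse 1 and at a low level in HKO mice 2 and 3, without overlap between the groups. The group means were 0.404 ± 0.117 (SD, n = 3) and 57.9 ± 92.9 CPM (SD, n = 3), so that the SD of the HKO group exceeded its mean. Relative to the fl/fl mean, HKO mice 1, 2 and 3 were at 409-fold, 7.27-fold and 13.9-fold. A single liver therefore set the size of the mean difference, while each of the 3 lay above the fl/fl livers. The log2 fold change was 7.19 ± 1.90 (SE) with all mice and 3.44 ± 0.39 without HKO mouse 1, which is 10.6-fold between the means. With all mice the SE itself depended on the setting, at 0.72 with ERCC scaling and 2.37 without the filter on low counts. The highest HKO liver was 56.2 times the lowest, a ratio that only 0.138% of the 13781 genes with a mean of at least 1 CPM reached among the HKO livers.

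Hsd3b3, which encodes an HSD3B isoform known from liver and kidney, was the most abundant Hsd3b gene of the fl/fl livers. It was measured at 89.4, 119 and 105 CPM in the fl/fl livers and at 248, 201 and 154 CPM in the HKO livers. The means were 105 ± 14.9 and 201 ± 46.9 CPM (SD, n = 3 each), or 1.92-fold. The lowest HKO liver, mouse 3, was above the highest fl/fl liver, mouse 2. The log2 fold change was 0.94 ± 0.20 (SE) and 0.76 ± 0.17 without HKO mouse 1. Hsd3b2, its closest neighbour in sequence, was measured at 22.4, 24.0 and 19.9 CPM in the fl/fl livers and at 73.2, 43.5 and 43.1 CPM in the HKO livers. HKO mice 2 and 3 were nearly equal and HKO mouse 1 was well above them. The means were 22.1 ± 2.09 and 53.2 ± 17.3 CPM (SD, n = 3 each), with a log2 fold change of 1.27 ± 0.22 (SE) and of 0.98 ± 0.13 without HKO mouse 1. The exons of Hsd3b2 and Hsd3b3 overlap those of Zfp697 on the opposite strand by 99 and 281 bases. Whether the counting used strand is not given in the sources used here, but Zfp697 was measured at between 1.92 and 3.57 CPM in all libraries, a small level beside that of both genes.

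The composition of the cluster differed most in HKO mouse 1. Of the counts on the 6 genes Hsd3b1 to Hsd3b6, Hsd3b5 took 0.262%, 0.367% and 0.311% in the fl/fl livers, 34.0% in HKO mouse 1 (exact binomial 95% interval 33.1 to 34.9), 1.19% in HKO mouse 2 (0.903 to 1.53) and 2.78% in HKO mouse 3 (2.34 to 3.26). These intervals cover counting error only and not the differences between animals. Hsd3b3 took 79.7%, 82.9% and 83.9% in the fl/fl livers, 81.2% and 75.9% in HKO mice 2 and 3, and 50.9% in HKO mouse 1. Hsd3b2 took between 15.1% and 21.2% in all 6 livers. Hsd3b3 and Hsd3b2 thus made up nearly all of the counts in the fl/fl livers and in HKO mice 2 and 3. The summed level of the cluster was 112, 144 and 126 CPM in the fl/fl livers and 486, 247 and 203 CPM in the HKO livers, with a log2 fold change of 1.29 ± 0.31 (SE) when the 6 genes were counted as one.

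**Figure D2:**
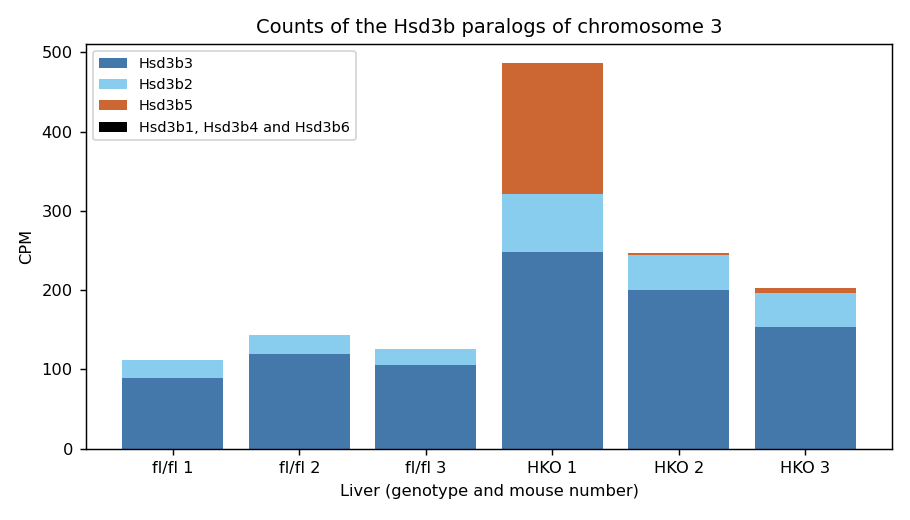
Stacked bars of the CPM of the Hsd3b genes of the chromosome 3 cluster in each liver, with Hsd3b3 at the bottom, then Hsd3b2 and Hsd3b5. Hsd3b1, Hsd3b4 and Hsd3b6 together are too low to be seen, and Hsd3b5 makes up 34.0% of the bar of HKO mouse 1.

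The other Hsd3b genes were at or near zero, except Hsd3b7. Hsd3b1, the isoform of the adrenal gland and gonads, had between 0 and 5 counts in each library, and Hsd3b6 had between 0 and 6. Hsd3b4 had 0 counts in all 6 libraries, as did Gm10681, whose coding sequence is 100% identical to it, so that unique counting could not have assigned reads to either gene where they match. Every window of 50 or 150 bases of Hsd3b4 was found in another gene, so its count of 0 sets no limit on its level. Gm4450, another near copy, had 0 counts in the fl/fl livers and 3, 0 and 1 in the HKO livers. Hsd3b7, which acts in bile acid synthesis and shares 50.5% of its coding bases with Hsd3b3, was measured at 13.7, 10.4 and 11.7 CPM in the fl/fl livers and at 28.0, 26.5 and 16.9 CPM in the HKO livers. It rose with a log2 fold change of 0.99 ± 0.21 (SE, edgeR, adjusted p = 0.0105), in 3 of 3 HKO livers. It did not pass the test with library sizes taken without TMM or from the spike-in RNAs, where its adjusted p reached 0.857. Its exons overlap those of the annotated gene Gm49388 on the same strand, so that its count is uncertain too.

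The sequences upstream of the 3 expressed Hsd3b genes are printed because these neighbours share a cluster and differ in level. Each is the 250 bases before the RefSeq start on GRCm38.p6, minus strand, at chr3:98724544-98724793 for Hsd3b2, chr3:98763129-98763378 for Hsd3b3 and chr3:98645535-98645784 for Hsd3b5. The RefSeq start of Hsd3b5 lies 15282 bases upstream of the start in GENCODE M21, and those used for Hsd3b2 and Hsd3b3 lie within 1 base of it. A second RefSeq start of Hsd3b3, whose window is not printed, lies 717 bases downstream. Capitals mark a match, on either strand, to one of 6 motifs, which were TTCNNNGAA (the STAT5 site), TGTTCT (one side of the glucocorticoid response element), TTATGTAA and TTACGTAA (PAR bZIP factors), AGGTCA (a nuclear receptor site) and CCAAT (the CCAAT box).
Hsd3b2: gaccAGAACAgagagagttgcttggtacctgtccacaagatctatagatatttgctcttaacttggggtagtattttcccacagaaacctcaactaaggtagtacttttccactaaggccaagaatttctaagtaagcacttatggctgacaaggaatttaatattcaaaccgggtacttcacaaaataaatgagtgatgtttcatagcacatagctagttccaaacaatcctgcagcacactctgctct
Hsd3b3: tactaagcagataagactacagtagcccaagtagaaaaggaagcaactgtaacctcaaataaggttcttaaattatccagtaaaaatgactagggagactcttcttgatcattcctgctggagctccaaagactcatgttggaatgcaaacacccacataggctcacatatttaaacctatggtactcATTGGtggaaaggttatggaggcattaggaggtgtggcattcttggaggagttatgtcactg
Hsd3b5: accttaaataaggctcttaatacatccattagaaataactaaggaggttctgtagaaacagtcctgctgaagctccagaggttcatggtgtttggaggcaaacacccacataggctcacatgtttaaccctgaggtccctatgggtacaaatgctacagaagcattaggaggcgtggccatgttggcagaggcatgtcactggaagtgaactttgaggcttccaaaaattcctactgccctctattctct
Hsd3b2 held TGTTCT, read on the reverse strand, at positions -246 to -241, and Hsd3b3 held CCAAT on the reverse strand at -62 to -58. None of the 6 motifs was found in the window of Hsd3b5. Of 32851 windows of the same length in the RefSeq table, 16.1% held TGTTCT, 33.9% held CCAAT, 14.0% held AGGTCA, 7.02% held TTCNNNGAA, 0.819% held TTATGTAA and 0.113% held TTACGTAA. CCAAT was also found upstream of Srd5a1 and Hsd11b1, at -111 to -107 and at -72 to -68, the latter from a RefSeq start 21715 bases downstream of that in GENCODE M21. A match of a few letters is a description of the window and not a binding site. In end-to-end alignments with gaps counted as differences, the windows of Hsd3b3 and Hsd3b5 were 50.2% identical (151 of 301 columns). The printed windows of this pair hold like stretches at shifted positions, so bases at the ends face gaps and lower the value. It therefore understates how alike the stretches are that both windows cover. The other pairs among the members with a window were between 37.9% and 45.1% identical by the same measure.

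The remaining 3 genes encode enzymes that set the local activity of androgens, estrogens and glucocorticoids. Hsd11b1 (ENSMUSG00000016194, chr1:193221634-193264075, minus strand), which regenerates active corticosterone from its inert keto form, was measured at 152, 156 and 159 CPM in the fl/fl livers and at 606, 580 and 296 CPM in the HKO livers. The means were 156 ± 3.60 and 494 ± 172 CPM (SD, n = 3 each). HKO mice 1 and 2 were close to each other, and HKO mouse 3 was lower but above every fl/fl liver. The log2 fold change was 1.66 ± 0.26 (SE) and 1.5 ± 0.25 without HKO mouse 1.

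Srd5a1 (ENSMUSG00000021594, chr13:69573449-69611442, minus strand), a steroid 5-alpha reductase that acts on testosterone, progesterone and corticosterone, was measured at 54.6, 64.6 and 62.8 CPM in the fl/fl livers and at 171, 120 and 125 CPM in the HKO livers. HKO mice 2 and 3 lay together and HKO mouse 1 above them. The means were 60.7 ± 5.31 and 139 ± 28.4 CPM (SD, n = 3 each), with a log2 fold change of 1.19 ± 0.16 (SE) and of 1.02 ± 0.13 without HKO mouse 1. Its exons share 476 bases with Gm17108 on the same strand, which was measured at between 0.489 and 0.849 CPM. Hsd17b2 (ENSMUSG00000031844, chr8:117701904-117759027, plus strand), which oxidizes estradiol and testosterone to their weaker keto forms, was measured at 71.6, 55.3 and 69.9 CPM in the fl/fl livers and at 216, 141 and 91.7 CPM in the HKO livers. Here the 3 HKO livers were spread out, with HKO mouse 3 not far above the highest fl/fl liver. The means were 65.6 ± 8.97 and 150 ± 62.8 CPM (SD, n = 3 each), with a log2 fold change of 1.19 ± 0.29 (SE) and of 0.83 ± 0.20 without HKO mouse 1. Hsd11b1 and Hsd17b2 shared no window of 50 bases with another gene.

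Among themselves the genes had unlike spreads over the HKO livers. The highest HKO liver was 1.43 times the lowest for Srd5a1, 1.61 times for Hsd3b3, 1.70 times for Hsd3b2, 2.04 times for Hsd11b1 and 2.36 times for Hsd17b2. Ratios as large as these were reached among the HKO livers by 46.4%, 31.3%, 26.4%, 15.5% and 10.6% of the 13781 genes with a mean of at least 1 CPM, so that apart from Hsd3b5 the spread of the 6 genes was not rare. The distance between the profiles of 2 genes was taken as the root mean square difference of their log2 CPM over the 6 livers, each gene centred on its own mean. It was smallest between Hsd3b2 and Srd5a1, at 0.145, and it was at most 0.392 among the 5 genes other than Hsd3b5. Between Hsd3b5 and the other 5 it was between 2.38 and 2.60.

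The genes with the most similar profiles, out of 13780 compared, differed from member to member. For Hsd3b5 these were Mup11, Mup1 and Mup16, which encode major urinary proteins, at distances of 0.73, 0.87 and 0.88. Mup11 was measured at 1.22, 0.527 and 0.966 CPM in the fl/fl livers and at 251, 13.2 and 9.76 CPM in the HKO livers, with HKO mouse 1 far above the rest as for Hsd3b5. The Mup genes are near copies of one another, so that their counts are uncertain. The nearest profiles to Hsd3b2 were those of Adh7, mt-Te and Tnfaip8l1, at 0.09 to 0.14, and those nearest to Hsd3b3 were Ndrg2, Mtfp1 and Cd59a, at 0.07 to 0.09. Srd5a1 was nearest to Tnfaip8l1, Prr16 and Hao1, at 0.10 to 0.12. Hsd11b1 was nearest to Rgn, Acot11 and Apoa2, at 0.07 to 0.14, and Hsd17b2 to Orm1, Sdf2l1 and Clec2d, at 0.09 to 0.10. Rgn, which encodes regucalcin, was measured at 396, 386 and 384 CPM in the fl/fl livers and at 1471, 1386 and 819 CPM in the HKO livers, with the same low HKO mouse 3 as Hsd11b1.

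Levels were compared between genes per kilobase of exon. In the fl/fl livers the order was Hsd11b1 at 36.6 ± 0.846, Hsd17b2 at 34.1 ± 4.66, Srd5a1 at 20.9 ± 1.83, Hsd3b3 at 16.4 ± 2.32, Hsd3b2 at 5.97 ± 0.565 and Hsd3b5 at 0.261 ± 0.0756 CPM per kilobase of all annotated exons (SD, n = 3 each). Hsd11b1 and Hsd17b2 differed by less than their spread, and the other neighbours in this order by more than the larger SD of the pair. In the HKO livers the order was Hsd11b1 at 116 ± 40.4, Hsd17b2 at 77.8 ± 32.6, Srd5a1 at 47.7 ± 9.75, Hsd3b5 at 37.4 ± 60.0, Hsd3b3 at 31.4 ± 7.33 and Hsd3b2 at 14.4 ± 4.67. There, Hsd3b5 differed by less than its SD from each of the others except Hsd11b1, Hsd11b1 and Hsd17b2 again differed by less than the larger SD, as did Hsd17b2 and Srd5a1, and Hsd3b3 and Hsd3b2 differed by more. The order depends on the length used, because all annotated exons of Hsd3b3 span 6396 bases and its median coding transcript 1443. Per kilobase of the median coding transcript, Hsd3b3 came directly after Hsd11b1 in the fl/fl livers, with 72.5 CPM per kilobase against 124 for Hsd11b1, 49.7 for Hsd17b2, 23.0 for Srd5a1, 12.3 for Hsd3b2 and 0.261 for Hsd3b5. It did so in the HKO livers too, with 139 against 393 for Hsd11b1, 113 for Hsd17b2, 52.5 for Srd5a1, 37.4 for Hsd3b5 and 29.8 for Hsd3b2.

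The scale to which libraries were set changed the size of each difference. TMM factors were 1.21, 1.15 and 1.13 in the fl/fl livers and 0.812, 0.802 and 0.984 in the HKO livers. Without them the median log2 fold change of all tested genes was lower by 0.42, and with the ERCC spike-in RNAs as the library size it was lower by 0.72. ERCC RNAs took 1.47%, 1.84% and 1.42% of the counts in the fl/fl livers and 2.75%, 2.31% and 1.35% in the HKO livers. On the ERCC scale the log2 fold changes remained positive for all 6 genes but fell to 0.47 for Hsd3b2, 0.13 for Hsd3b3, 5.91 for Hsd3b5, 0.44 for Srd5a1, 0.77 for Hsd11b1 and 0.27 for Hsd17b2. Only Hsd3b5 and Hsd11b1 then kept every HKO liver above every fl/fl liver, whereas without TMM 6 of 6 did. Relative to the median gene the members stood between 0.83 and 6.60 on the ERCC scale, and between 0.91 and 7.17 on the TMM scale.

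**Figure D3:**
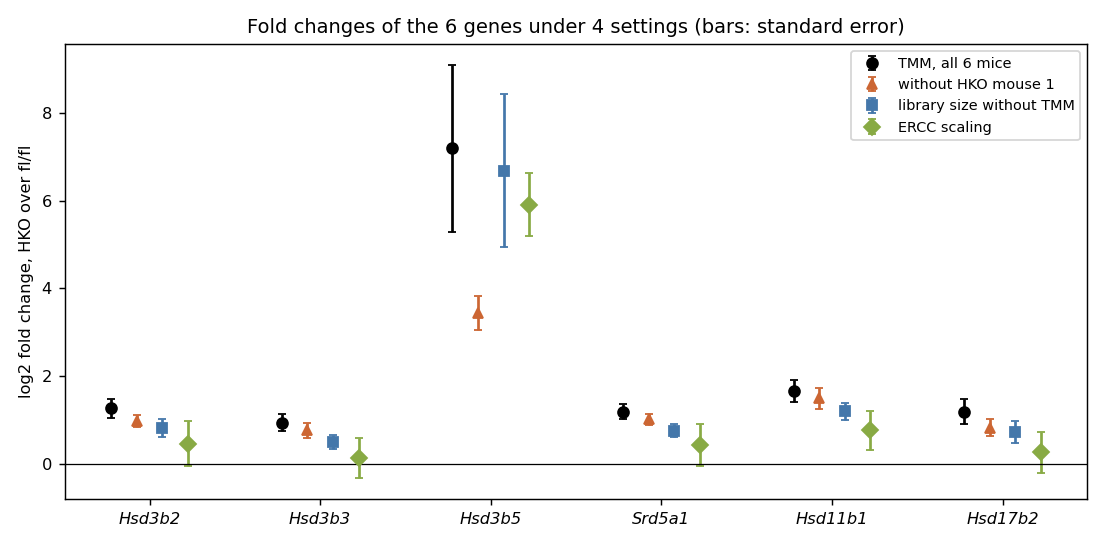
Log2 fold change of each gene, SHMT2 HKO over SHMT2 fl/fl, under 4 settings, with bars for the standard error. Circles are the TMM-scaled fit of all 6 mice, triangles leave out HKO mouse 1, squares use library sizes without TMM and diamonds use the ERCC spike-in RNAs; Hsd3b5 lies between 3.44 and 7.19 and the other genes between 0.13 and 1.66.

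The other enzymes of steroid metabolism were looked at as lists, whose genes were chosen with earlier results of these data known. By edgeR, with p-values adjusted over all genes tested, 12.5% of tested genes were higher in the HKO livers at an adjusted p under 0.05 and 16.5% were lower. Of 11 further Hsd17b genes, 9 could be tested, 5 rose and 0 fell, with a median log2 fold change of 0.90. Without HKO mouse 1 the list also had 5 that rose and 0 that fell, whereas without fl/fl mouse 1 it had 4 and 1. Hsd17b7, an enzyme of cholesterol synthesis, rose from 16.6, 13.7 and 15.8 to 29.4, 47.4 and 39.9 CPM (log2 fold change 1.34 ± 0.18 SE, adjusted p = 0.00222). Hsd17b10, a mitochondrial dehydrogenase, rose from 93.5, 124 and 113 to 322, 358 and 150 CPM (1.33 ± 0.30 SE, adjusted p = 0.0149), with HKO mouse 3 again low, but did not pass without fl/fl mouse 1 or 3 (adjusted p = 0.0631 and 0.0564). Hsd17b4, the peroxisomal multifunctional protein of fatty acid oxidation, rose from 366, 353 and 363 to 556, 774 and 690 CPM (0.90 ± 0.16 SE, adjusted p = 0.00615), but did not pass without TMM (adjusted p = 0.0560). Without TMM, 4 of the list rose and 1 fell. HKO mouse 2, not HKO mouse 1, was the highest HKO liver for these 3 genes. Hsd17b13, a lipid droplet protein and the most abundant of the list, was at 531, 547 and 641 against 461, 638 and 697 CPM and did not pass the test (adjusted p = 0.826).

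Of 13 further reductases and aldo-keto reductases of steroids, 10 could be tested, 6 rose and 0 fell, with a median log2 fold change of 0.84, and without HKO mouse 1 also 6 rose and 0 fell. Akr1c14, a 3-alpha-hydroxysteroid dehydrogenase that works downstream of the 5-alpha reductases, rose from 98.6, 75.2 and 94.0 to 282, 196 and 225 CPM (1.39 ± 0.18 SE, edgeR, adjusted p = 0.00172). Akr1d1, the 5-beta reductase of bile acid and steroid metabolism, rose from 35.9, 44.1 and 37.5 to 73.6, 134 and 57.8 CPM (1.17 ± 0.29 SE, adjusted p = 0.0195), but did not pass without fl/fl mouse 1, 2 or 3 (adjusted p = 0.0735, 0.0545 and 0.0736), without TMM or without the filter on low counts (0.0527 and 0.0683). Akr1c6, a 17-beta-hydroxysteroid dehydrogenase of liver, rose from 316, 290 and 356 to 664, 621 and 486 CPM (0.88 ± 0.17 SE, adjusted p = 0.00771). H6pd, which makes the NADPH that drives Hsd11b1 in the endoplasmic reticulum, was at 374, 344 and 454 against 604, 508 and 538 CPM and missed the threshold (0.49 ± 0.16 SE, adjusted p = 0.0532), although DESeq2 and limma-voom called it. None of the calls in either list held on the ERCC scale, on which 0 genes of each were called.

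Steroid production from cholesterol was hardly represented. Of 9 genes of the adrenal gland and gonads, only 3 had enough counts to be tested. Cyp11b1 and Cyp19a1 had 0 counts in all libraries, and Cyp11a1, the first enzyme of steroid synthesis, was at 0 in 5 libraries and at 0.891 CPM in HKO mouse 1. No gene of this list was called by edgeR, 1 had an unadjusted p under 0.05, and DESeq2 and limma-voom each called 1. Cyp21a1, a steroid hydroxylase, was at 5.11, 2.26 and 2.69 against 12.4, 5.32 and 6.46 CPM (edgeR, adjusted p = 0.0506, 0.00790 to 0.619 under the alternatives and 0.0345 without fl/fl mouse 1). Cyp17a1, a steroid hydroxylase and lyase that mouse liver also transcribes, was at 27.5, 28.4 and 26.6 CPM in the fl/fl livers and at 13.5, 101 and 38.9 CPM in the HKO livers. HKO mouse 1 was thus below the fl/fl range and HKO mice 2 and 3 above it, the reverse of the order for Hsd3b5, and its adjusted p was 0.316 with all mice and 0.0219 without HKO mouse 1. Star, the cholesterol carrier of steroid-producing cells, was at between 2.56 and 3.77 CPM in all livers.

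Nr3c1, the glucocorticoid receptor, was at 52.4, 45.9 and 48.0 CPM in the fl/fl livers and at 60.6, 51.9 and 61.8 CPM in the HKO livers and did not pass (edgeR, adjusted p = 0.146). Nr3c2 and Esr1, the mineralocorticoid and estrogen receptors, and Serpina6, which encodes the corticosteroid carrier of plasma, had adjusted p-values of 0.807, 0.861 and 0.406. Of 10 glucocorticoid-responsive genes, 10 could be tested and 0 were called by edgeR, 2 had an unadjusted p under 0.05, both lower, and DESeq2 called 2 and limma-voom 0. The median log2 fold change of this list was -0.25. Pck1, which encodes a rate-limiting enzyme of gluconeogenesis, was at 2772, 3576 and 2499.9 against 2156, 3633 and 2586 CPM. Tat, a classical glucocorticoid target, was at 1355, 1661 and 1001 against 676, 1039 and 825 CPM (-0.66 ± 0.24 SE, edgeR, adjusted p = 0.0718, 0.00988 to 0.250 under the alternatives), so that the groups overlapped.

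**Figure D4:**
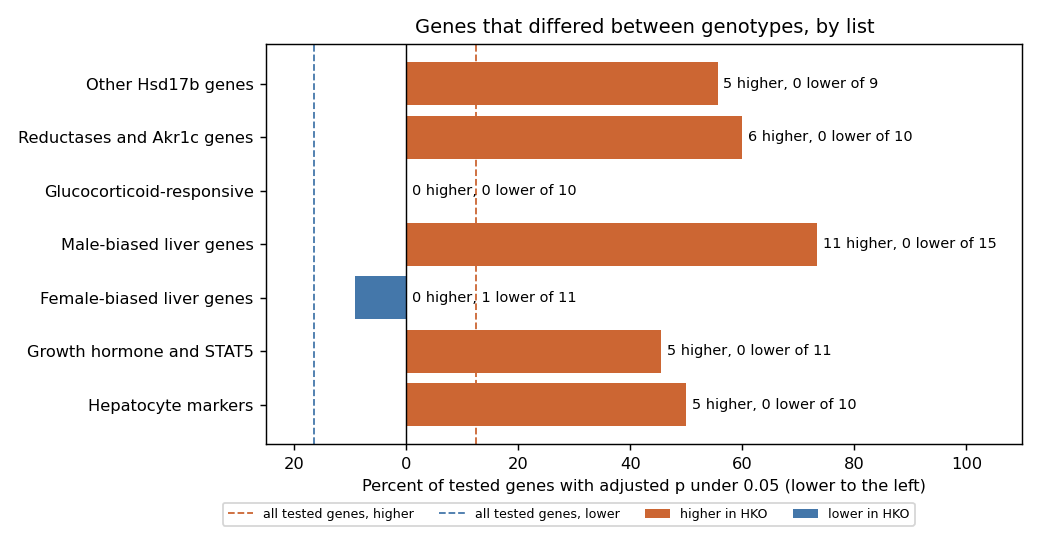
Percent of the tested genes of each list that were higher (right) or lower (left) in the SHMT2 HKO livers at an adjusted p under 0.05, with the counts printed beside the bars. Dashed lines mark 12.5% higher and 16.5% lower over all tested genes. The male-biased list has 11 of 15 tested genes higher, and the glucocorticoid-responsive list has 0 of 10 called.

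Hsd3b5 belongs to the male-biased genes of mouse liver, and 16 others of that kind were listed. Of 15 that could be tested, 11 rose and 0 fell, with a median log2 fold change of 1.49, and on the ERCC scale 5 rose with a median of 0.63. Without HKO mouse 1, 10 rose and 1 fell. HKO mouse 1 was the highest HKO liver for 13 of the 15 genes. The median log2 ratio to the fl/fl mean over this list was 2.19 in HKO mouse 1, 1.29 in HKO mouse 2 and 1.34 in HKO mouse 3. Susd4 rose from 1.25, 1.35 and 1.17 to 32.2, 23.8 and 7.75 CPM (4.08 ± 0.51 SE, edgeR, adjusted p = 0.00196). Slco1a1, an uptake transporter for steroid conjugates and bile acids, rose from 19.1, 9.90 and 6.16 to 281, 92.2 and 140 CPM (3.87 ± 0.57 SE, adjusted p = 0.00396). For both genes, as for Hsd3b5, every HKO liver was above every fl/fl liver, with HKO mouse 1 the highest. Mup20, the pheromone darcin, was at 3929.5, 2443 and 2535 against 6627, 1951 and 5910.5 CPM and did not pass (adjusted p = 0.260, and 0.0352 without HKO mouse 2, with a log2 fold change of 1.08). Serpina1e, a serine protease inhibitor, was at 1050.4, 367 and 730.2 CPM in the fl/fl livers and at 3974, 114 and 125 CPM in the HKO livers, with a log2 fold change of 0.97 with all mice and -2.58 without HKO mouse 1 (adjusted p = 0.626 and 0.00404). Its direction therefore turned on 1 liver.

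**Figure D5:**
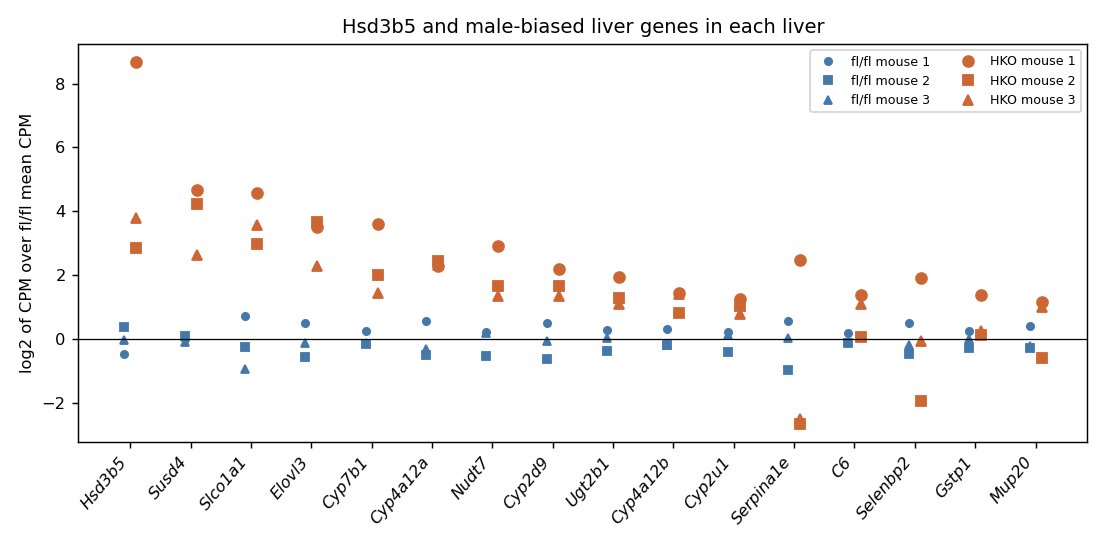
Log2 of the CPM of Hsd3b5 and 15 male-biased liver genes over the mean of the SHMT2 fl/fl livers, for each liver. Small symbols are fl/fl mice and large symbols HKO mice, with circles, squares and triangles for mice 1, 2 and 3. HKO mouse 1 is the highest HKO liver for Hsd3b5 and for 13 of the 15 genes, and Serpina1e has HKO mouse 1 above and HKO mice 2 and 3 below the fl/fl livers.

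Of 15 female-biased liver genes, 11 could be tested, 0 rose and 1 fell. Cyp2a4, a steroid 15-alpha-hydroxylase, fell from 83.7, 74.8 and 60.1 to 1.06, 10.1 and 5.04 CPM (-3.77 ± 0.64 SE, edgeR, adjusted p = 0.00642), lowest in HKO mouse 1. It did not pass without the filter on low counts (adjusted p = 0.0585). Acot3, an acyl-CoA thioesterase, was at 5.06, 33.6 and 16.0 against 10.3, 165 and 32.2 CPM (edgeR, adjusted p = 0.226). With a replicate block it passed as higher, at a log2 fold change of 1.46 (edgeR, adjusted p = 0.0162). HKO mouse 1 was the highest HKO liver for 0 of the 11 genes, and the summed level of the list was 112, 137 and 98.7 CPM in the fl/fl livers and 19.6, 226 and 62.9 CPM in the HKO livers. This sum rested mostly on Cyp2a4 in the fl/fl livers and on Acot3 in HKO mouse 2, and it was lowest in HKO mouse 1. Of 11 genes of growth hormone and STAT5 signalling, 5 rose and 0 fell, or 5 and 1 without HKO mouse 1, with a median log2 fold change of 0.41 that became -0.27 on the ERCC scale, where 1 rose. Onecut1, a growth hormone responsive transcription factor, rose from 6.83, 7.79 and 7.15 to 36.8, 24.8 and 54.7 CPM (2.42 ± 0.27 SE, adjusted p = 0.00128). Cish, a feedback inhibitor that STAT5 induces, rose from 14.7, 19.8 and 17.0 to 72.0, 32.1 and 43.7 CPM (1.52 ± 0.28 SE, adjusted p = 0.00677), highest in HKO mouse 1 and lowest in HKO mouse 2, the order of Hsd3b5. Hnf4a, which maintains the hepatocyte program, was at 410, 481 and 560 against 591, 654 and 679 CPM, without overlap between the groups. It did not pass by edgeR (adjusted p = 0.101) but passed by DESeq2 (adjusted p = 0.038), which called 6 genes of this list. Igf1, the growth hormone induced insulin-like growth factor of liver, rose from 284, 286 and 303 to 504, 409 and 351 CPM (0.53 ± 0.17 SE, adjusted p = 0.0422), but did not pass when any mouse other than HKO mouse 3 was left out (adjusted p = 0.0831 to 0.135), nor under 6 other alternatives, where its adjusted p reached 0.656.

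Markers of cell types moved with genotype in the same libraries, and their part in the values of the 6 genes was not tested. The liver label was checked against 10 hepatocyte markers, which were all detected in every library. Of these, 5 rose and 0 fell, with a median log2 fold change of 0.68 that became -0.13, with 0 higher and 1 lower, on the ERCC scale. Their summed level was 63596, 64789 and 77956 CPM in the fl/fl livers and 113460, 109330 and 75774 CPM in the HKO livers, with Alb, which encodes albumin, the most abundant. By edgeR, Alb did not pass with all mice and passed without HKO mouse 3 (adjusted p = 0.132 and 0.0326), and by DESeq2 it passed with all mice (adjusted p = 0.0157). DESeq2 called 8 genes of the list and limma-voom 5. In this sum HKO mouse 3 was within the fl/fl range and HKO mice 1 and 2 above it, with Alb and also without it (28766, 30303 and 34637 against 56139, 43674 and 33067 CPM). By gene, 6 of the 10 markers were above every fl/fl liver in all 3 HKO livers, as were 21.9% of all tested genes. This was counted on the TMM scale only. Apoa1, the main protein of high-density lipoprotein, was at 7704, 8739 and 9020.1 against 17306, 13514 and 10166 CPM (edgeR, adjusted p = 0.0646). It passed by DESeq2 (adjusted p = 0.00389), and by edgeR without the filter on low counts or without HKO mouse 3 (adjusted p = 0.0497 and 0.0112). Asgr1, a subunit of the asialoglycoprotein receptor, rose from 263, 285 and 301 to 608, 539 and 366 CPM (edgeR, adjusted p = 0.0179), but did not pass in 6 of 15 alternatives, where its adjusted p reached 0.993. Ttr, which encodes transthyretin, passed narrowly, at 3044, 2953 and 4001 against 6800.4, 6899 and 3933 CPM (adjusted p = 0.0498), with HKO mouse 3 within the fl/fl range, and did not pass in 11 of 15 alternatives, where its adjusted p reached 0.918. Without HKO mouse 1, 4 of the list rose and 0 fell, and without TMM 0 rose and 1 fell. Of the 6 genes, Hsd3b3, Hsd11b1 and Hsd17b2 were likewise higher in HKO mice 1 and 2 than in HKO mouse 3, Hsd3b2 was nearly equal in HKO mice 2 and 3, and Srd5a1 and Hsd3b5 were lower in HKO mouse 2 than in HKO mouse 3. All 5 bile duct markers fell, with a median of -2.97, and Spp1, the most abundant, fell from 876, 944 and 792 to 104, 105 and 215 CPM (adjusted p = 0.00134). Krt7, Krt19, Epcam and Sox9 had log2 fold changes between -3.12 and -2.11 (adjusted p = 0.000639 to 0.00137). The sum of all 5 was 1004, 1181 and 951 CPM in the fl/fl livers and 128, 128 and 245 CPM in the HKO livers. Most of it was Spp1, and without this gene it was 128, 237 and 160 against 23.6, 22.7 and 29.9 CPM.

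Of 8 markers of stellate cells and fibroblasts, 4 fell and 1 rose, with a median of -0.60, and their sum was 1319.6, 1272 and 1342 CPM against 354, 528 and 867 CPM. Col3a1, the most abundant, fell from 415, 477 and 470 to 74.4, 112 and 228 CPM (-1.72 ± 0.37 SE, edgeR, adjusted p = 0.0120), but did not pass without the filter on low counts (adjusted p = 0.0770). Col1a1, the other fibrillar collagen gene named, fell from 396, 368 and 383 to 46.3, 90.04 and 180 CPM (-1.86 ± 0.43 SE, adjusted p = 0.0167), but did not pass without the filter (adjusted p = 0.121), without fl/fl mouse 1, 2 or 3 or without HKO mouse 2 (adjusted p = 0.0538 to 0.0599). Of 6 genes listed as lymphocyte markers, 3 fell and 0 rose, and their sum was 49.8, 33.0 and 39.7 CPM against 12.6, 14.9 and 22.4 CPM. Most of this sum was Ptprc, and without it the sum was 10.9, 9.37 and 8.82 against 2.04, 3.60 and 3.35 CPM. Cd3e and Cd3g, subunits of the T cell receptor complex, fell with log2 fold changes of -2.43 and -2.46 (adjusted p = 0.00517 and 0.00170), and the B cell genes Cd79a and Ms4a1 had adjusted p-values of 0.123 and 0.215. Cd79a passed, as lower, without HKO mouse 2, without TMM and on the ERCC scale. Ptprc passed with all mice (adjusted p = 0.0133) but not without fl/fl mouse 1 or without HKO mouse 2 (adjusted p = 0.0524 in each). Of 8 macrophage markers, 3 rose and 2 fell, and their sum was 349, 218 and 302 CPM against 362, 447 and 359 CPM, with Cd5l the most abundant. Clec4f and Timd4, markers of resident Kupffer cells, rose from 23.9, 8.80 and 13.9 to 129, 137 and 65.9 CPM and from 0.367, 0.226 and 0.339 to 4.71, 4.66 and 2.01 CPM (edgeR, adjusted p = 0.00391 and 0.00149). Csf1r, a receptor of monocytes and macrophages, fell from 112, 106 and 104 to 55.0, 75.6 and 69.6 CPM (adjusted p = 0.00931). Of 6 endothelial markers, 2 rose and 0 fell, with a median of 0.48 that became -0.21 on the ERCC scale. Without HKO mouse 1, 4 rose and 0 fell, with Lyve1 and Kdr added (adjusted p = 0.00480 and 0.0248), and without TMM 1 rose and 2, Pecam1 and Cdh5, fell (adjusted p = 0.0294 and 0.0257, against 0.261 and 0.221 with TMM). Stab2 and Clec4g, genes of sinusoidal endothelium, were those that rose (0.55 ± 0.11 and 1.93 ± 0.29 SE, adjusted p = 0.00781 and 0.00320), but neither passed on the ERCC scale, and Stab2 did not pass without TMM (adjusted p = 0.526). The sum of the list was 185, 160.4 and 171 CPM against 227, 263 and 266 CPM, with Stab2 the most abundant. DESeq2 called 4 endothelial genes and limma-voom 2. The counts of the bile duct, stellate cell, lymphocyte and macrophage lists were the same without HKO mouse 1, but scaling moved all but the first. Without TMM, 0 stellate cell genes rose and 6 fell, 2 macrophage genes rose and 3 fell, and 4 lymphocyte genes fell. On the ERCC scale, 0 stellate cell genes rose and 3 fell, 2 macrophage genes rose and 2 fell, and 4 lymphocyte genes fell. No marker of these lists was at 0 in all libraries.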

How the data were processed

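RNA sequencing of whole liver was analysed from 3 SHMT2 fl/fl mice (labelled WT) and 3 SHMT2 HKO mice (labelled KO), with groups taken from the deposited labels. The values deposited by the authors are raw counts of reads per gene, without normalization. The submitters' processing notes and the study's methods name Trimmomatic 0.36, STAR 2.5.2b on GRCm38 with the ERCC sequences, and featureCounts of Subread 1.5.2, which counted unique hits. Strand in counting is not given in the sources used here. The 92 ERCC entries entered neither library sizes nor tests, and 345 of 49671 gene identifiers had no symbol in GENCODE M21. Reads in exons shared by near copies or overlapping genes may go uncounted in this way, so such genes may be undercounted.

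Counts were filtered with filterByExpr, scaled by TMM and fitted with the quasi-likelihood test of edgeR 4.0.16 in R 4.3.3 on all 6 libraries with genotype as the only term, with Benjamini-Hochberg adjustment over 16089 genes. Each SE of a log2 fold change was derived from this test, as the absolute change divided by the square root of the F statistic. For the 6 genes it is given as a description only. The procedure was tested on simulated data with the same dispersion for all genes and mice. Such data hold no outlying liver like HKO mouse 1, so the test does not cover that case. The mice are separate animals. The 6 genes and all gene lists were chosen with earlier results of these data known. The text names the 6 genes, every Hsd3b gene, Shmt2, and up to 4 genes of each list, which were the 2 most abundant and the 2 with the greatest absolute log2 fold change among those called, or all where 6 or fewer were tested. Some genes that this rule names, and the count of a list, are not reported here. Overlapping genes, genes at 0 and Moxd1 were named after their values were seen. For each of the 6 genes the 3 nearest profiles among genes with a mean of at least 1 CPM were named, from log2 CPM with a prior count of 2. Alternatives were DESeq2 1.42.0, limma-voom (limma 3.58.1), other scalings and filters, a replicate block, summed Hsd3b paralogs and leaving out each mouse. The depth of 23090837 to 34089722 counts per library put 3 counts at 0.0734 to 0.152 CPM. Sequences upstream of genes came from RefSeq on GRCm38.p6, which held an entry for 5 of the 6 genes.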

Additional observations from a re-analysis of the deposited data

How the results depend on the processing

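With library sizes taken without TMM, the log2 fold changes were 0.83 for Hsd3b2, 0.50 for Hsd3b3, 0.76 for Srd5a1, 1.20 for Hsd11b1 and 0.73 for Hsd17b2, and with ERCC scaling 0.47, 0.13, 0.44, 0.77 and 0.27. Summing the Hsd3b paralogs gave 1.29 in place of the separate values of Hsd3b3 and Hsd3b5. Without TMM, 0 other Hsd3b genes and 2 glucocorticoid-responsive genes were called. With ERCC scaling, 0 genes were called among the other Hsd3b genes, the other Hsd17b genes and the reductases, 3 among glucocorticoid-responsive genes, 5 among male-biased genes and 1 in the growth hormone list. DESeq2, upper-quartile scaling, no filter and at least 10 counts in every sample called 2, 2, 1 and 1 glucocorticoid-responsive genes. DESeq2 and limma-voom called 1 adrenal and gonad gene each, and no filter called 0 female-biased genes. The scaling itself set the split of calls over all genes, which was 2012 higher and 2651 lower with TMM, 539 and 4923 without TMM, 1461 and 3039 with upper-quartile scaling and 107 and 2759, 2866 in all, with ERCC scaling.

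Leaving out each mouse in turn gave log2 fold changes of 0.98 to 1.40 for Hsd3b2, 0.76 to 1.08 for Hsd3b3, 3.44 to 7.75 for Hsd3b5, 1.02 to 1.29 for Srd5a1, 1.5 to 1.91 for Hsd11b1, 0.83 to 1.42 for Hsd17b2 and -2.16 to -1.92 for Shmt2. The genes called numbered 0 to 1 among adrenal and gonad genes, 0 to 1 among glucocorticoid-responsive, 1 to 2 among female-biased, 9 to 12 among male-biased, 4 to 6 in the growth hormone list and among the other Hsd17b genes, 5 to 6 among the reductases, 1 to 1 among the other Hsd3b genes, and 2426 to 5597 over all genes. The cause of these changes was not tested.

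Deviations from the group mean had r over genes of -0.05, 0.01 and -0.08 between mice of the same number, for numbers 1, 2 and 3. Between mice of unlike number r lay between -0.02 and 0.08. The numbers were not treated as pairs, but with so few mice this cannot exclude a small shared effect. With a replicate block, 3584 genes were called, Hsd3b5 had a log2 fold change of 5.91, and 1 adrenal and gonad gene and 2 female-biased genes were called.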

Other observations

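Moxd1, a monooxygenase homolog on the male-biased list, did not reach the filter on low counts and belonged to no comparison, and it is named after its values were seen. It had 3, 7 and 6 counts in the SHMT2 fl/fl livers and 907, 2 and 4 counts in the SHMT2 HKO livers, or 38.5 CPM in HKO mouse 1 and at most 0.263 CPM in each of the other 5 livers. Unlike Hsd3b5, it was not above the fl/fl range in HKO mice 2 and 3.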
